A study of Homo sapiens with 9 samples.

Results

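The ERBB receptors and their epidermal growth factor (EGF)-like ligands were followed in Hec50, an established line of human endometrial cancer cells, after a synthetic mimic of the microRNA miR-200c was introduced. The members were all probe sets of the Affymetrix array whose only gene symbol was that of a listed receptor (EGFR, ERBB2, ERBB3, ERBB4) or ligand (EGF, AREG, EREG, HBEGF, TGFA, BTC). They came to 33 probe sets of 9 genes, out of 41091 probe sets with 1 gene symbol and 19775 genes. The array annotation gives 9 probe sets for EGFR, 3 for ERBB2, 5 for ERBB3, 4 for ERBB4, 1 for EGF, 2 for EREG, 4 for HBEGF, 3 for TGFA and 2 for BTC. AREG, which encodes amphiregulin, had no probe set that met the rule and is not analysed here.

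The 9 arrays held 3 of mock transfected cells, 3 of cells given a scrambled negative control RNA and 3 of cells given the miR-200c mimic. The dose of either RNA was 60 nM and the exposure 48 hours, and for mock cells no time is labelled. All groups are 1 cell line grown in serum, which itself holds growth factors, and the labels do not say whether replicates came from separate cultures, so the p-values cover the spread among these samples alone, and that may be technical. The study asked which genes miR-200c controls in an aggressive cancer.

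ERBB receptors are tyrosine kinases of the cell surface that pair when a ligand binds and then signal through the RAS-MAPK and PI3K-AKT pathways. EGF, TGFA and amphiregulin bind EGFR, while HBEGF, betacellulin (BTC) and epiregulin (EREG) bind both EGFR and ERBB4. ERBB2 has no known ligand of its own and serves as a partner, and ERBB3 has weak kinase activity and binds neuregulins. The ligands are made as membrane proteins that proteases release. miR-200c belongs to the miR-200 family of epithelial cells and represses ZEB1 and ZEB2, transcriptional repressors of E-cadherin (CDH1).

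The sequence of the mature microRNA is shown because its seed, bases 2 to 8 in capitals, sets which mRNAs it can pair with, and the rest of the family is shown for the 2 seeds it holds. The labels do not name the arm of the mimic, and the 3p forms below are those of RefSeq (GRCh38.p14), written 5′ to 3′.
hsa-miR-200c-3p: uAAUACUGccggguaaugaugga
hsa-miR-200b-3p: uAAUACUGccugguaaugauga
hsa-miR-429: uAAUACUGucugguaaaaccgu
hsa-miR-141-3p: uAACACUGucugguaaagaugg
hsa-miR-200a-3p: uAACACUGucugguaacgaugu
miR-200c, miR-200b and miR-429 share the seed AAUACUG, and miR-141 and miR-200a share AACACUG. miR-200c-3p lies on chr12:6963742-6963764, plus strand.

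ZEB1 binds the E-box letters CACCTG, read as CAGGTG on the opposite strand, and the 250 bases before the start sites of the members were searched for them on both strands. For the ligand genes whose probe sets passed a test, 1 promoter each is shown with the motif in capitals, from RefSeq (GRCh38.p14), 5′ to 3′ on the gene's strand. They are TGFA at chr2:70553447-70553696, minus strand, BTC at chr4:74794524-74794773, minus strand, and EREG at chr4:74364895-74365144, plus strand.
TGFA: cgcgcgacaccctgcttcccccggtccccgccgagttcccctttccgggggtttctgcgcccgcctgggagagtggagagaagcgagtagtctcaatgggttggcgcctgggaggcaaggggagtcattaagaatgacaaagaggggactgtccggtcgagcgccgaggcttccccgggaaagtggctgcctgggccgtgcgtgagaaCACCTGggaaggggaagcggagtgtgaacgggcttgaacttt
BTC: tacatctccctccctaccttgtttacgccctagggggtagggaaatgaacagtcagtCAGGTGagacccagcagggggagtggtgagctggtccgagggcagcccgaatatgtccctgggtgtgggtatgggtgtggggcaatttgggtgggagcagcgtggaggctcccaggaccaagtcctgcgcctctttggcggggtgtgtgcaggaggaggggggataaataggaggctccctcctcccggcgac
EREG: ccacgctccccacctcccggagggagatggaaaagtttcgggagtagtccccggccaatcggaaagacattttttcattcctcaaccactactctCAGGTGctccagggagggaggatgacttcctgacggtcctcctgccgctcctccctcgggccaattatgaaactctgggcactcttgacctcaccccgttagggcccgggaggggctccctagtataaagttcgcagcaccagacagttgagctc
Counted back from the start site, the motif began at -42 in TGFA, -193 in BTC and -155 in EREG. RefSeq promoters were matched for 9 of the 10 listed genes, AREG included, and 5 of their 11 promoters held the motif: those of AREG, EREG, HBEGF and BTC and 1 of the 2 of TGFA. The same motif stood in 17.5% of 35116 promoters of this length. No promoter of EGFR, ERBB2, ERBB4 or EGF held these letters in the window. A match is a description of the letters and was not tested as a binding site.

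The authors deposited centred log expression, taken here as log2, with a median of 0 over the 9 arrays for every probe set. This gives differences and not levels, and values of different genes cannot be ranked as levels. A level class could be recovered from the rounding of the stored numbers: 10 member probe sets were in the class of 8 or more (log2), 22 from 4 to 8, and 1 of ERBB4 below 4. Signal over background is not known, so a class does not show that a transcript was detected. No filter on low values was applied, and all 33 probe sets were tested with limma over all 54613 probe sets, and called where the Benjamini-Hochberg adjusted p was under 0.05.

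The labels of the groups were checked first. In values of 1 per gene, CDH1 lay at 3.44, 3.26 and 3.08 on the mimic arrays and between -0.46 and 0.20 on the other 6. ZEB1 lay between -1.52 and -1.46 with the mimic and between -0.02 and 0.17 on the others. CDH1 was higher than with the scrambled control by 3.26 on the log2 scale (SE 0.12, n = 3 per group, limma adjusted p = 9.25e-08). ZEB1 and ZEB2 fell by 1.57 and 0.56 (adjusted p = 1.65e-07 and 0.000325). Averaging every probe set of each gene, these changes were 1.92 for CDH1, -0.99 for ZEB1 and -0.21 for ZEB2. Quantile normalization, applied to the values as already centred, gave 1.69, -1.16 and -0.48 in the same order. Of the epithelial markers, KRT8, KRT18, EPCAM, CDH1 and PAX8 were in the class of 8 or more and KRT19 from 4 to 8. None of the 3 measured leukocyte markers and 4 endothelial markers was in the class of 8 or more, and 2 of 5 stromal fibroblast markers were, COL1A1 and COL1A2.

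Against the scrambled control, transcripts of the ligands TGFA and BTC were higher with the mimic, and no receptor probe set passed the test. Of the 33 member probe sets, 5 were higher, 0 were lower and 28 did not pass (limma). Over all probe sets 4.52% were called higher and 4.15% lower. The 5 were all 3 probe sets of TGFA and both of BTC, so 5 of 12 ligand probe sets and 0 of 21 receptor probe sets were called. The 5 thus stand for 2 genes, and probe sets of 1 gene are not separate members. Beside the shares over all probe sets, the absence of calls among 21 probe sets is not a result about the receptors. The median log2 change was 0.17 over the ligand probe sets and 0.04 over the receptor probe sets, beside -0.01 over all probe sets. At an unadjusted p under 0.05, 2 receptor probe sets were higher and 0 lower, and 1 ligand probe set was lower.

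TGFA encodes transforming growth factor alpha, a ligand of EGFR. Its probe set 205016_at read 0.47, 0.36 and 0.42 with the mimic, -0.12, -0.15 and -0.08 with the scrambled control, and 0.01, -0.12 and 0.00 in mock cells. All 3 mimic arrays lay above all 6 others, and the scrambled and mock arrays overlapped. The log2 change from scrambled control to mimic was 0.53 (1.44-fold, SE 0.06, 95% interval 0.40 to 0.66, adjusted p = 0.000247).

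The second TGFA probe set, 205015_s_at, read 0.35, 0.21 and 0.23 with the mimic, -0.19, -0.57 and -0.14 with the scrambled control and 0.00, -0.04 and 0.00 in mock cells. The 3 groups did not overlap, the mock arrays lay between the others, and scrambled replicate 2 was the lowest. The log2 change against the scrambled control was 0.56 (SE 0.10, adjusted p = 0.00503). The third, 211258_s_at, showed the same order, with 0.12, 0.12 and 0.14 under the mimic, -0.33, -0.23 and -0.10 under the scrambled control and 0.03, -0.02 and 0.00 in mock cells. Its change was 0.35 (SE 0.06, adjusted p = 0.0054). All 3 TGFA probe sets were called under each of the 14 alternative settings tried. 211258_s_at was in the class from 4 to 8 and the others were in that of 8 or more.

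BTC encodes betacellulin, a ligand of EGFR and ERBB4, and both of its probe sets were in the class from 4 to 8. Probe set 241412_at read 0.40, 0.55 and 0.42 with the mimic, -0.15, -0.02 and 0.00 with the scrambled control and -0.17, 0.06 and -0.23 in mock cells. The mimic arrays stood apart from both controls, whose values overlapped. The change against the scrambled control was 0.51 (1.43-fold, SE 0.08, adjusted p = 0.00266), called under 14 of 14 alternatives. Probe set 207326_at read 0.30, 0.31 and 0.06 with the mimic, -0.29, -0.36 and 0.00 with the scrambled control and 0.00, -0.12 and 0.12 in mock cells. Here mimic replicate 3 lay close to scrambled replicate 3 and within the range of the mock arrays. The change was 0.44 (SE 0.10, adjusted p = 0.0264), and the call was lost under 5 of 14 alternatives, which were the fit of the 2 groups alone and leaving out scrambled replicate 1, scrambled replicate 2, mimic replicate 1 or mimic replicate 2.

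**Figure D1:**
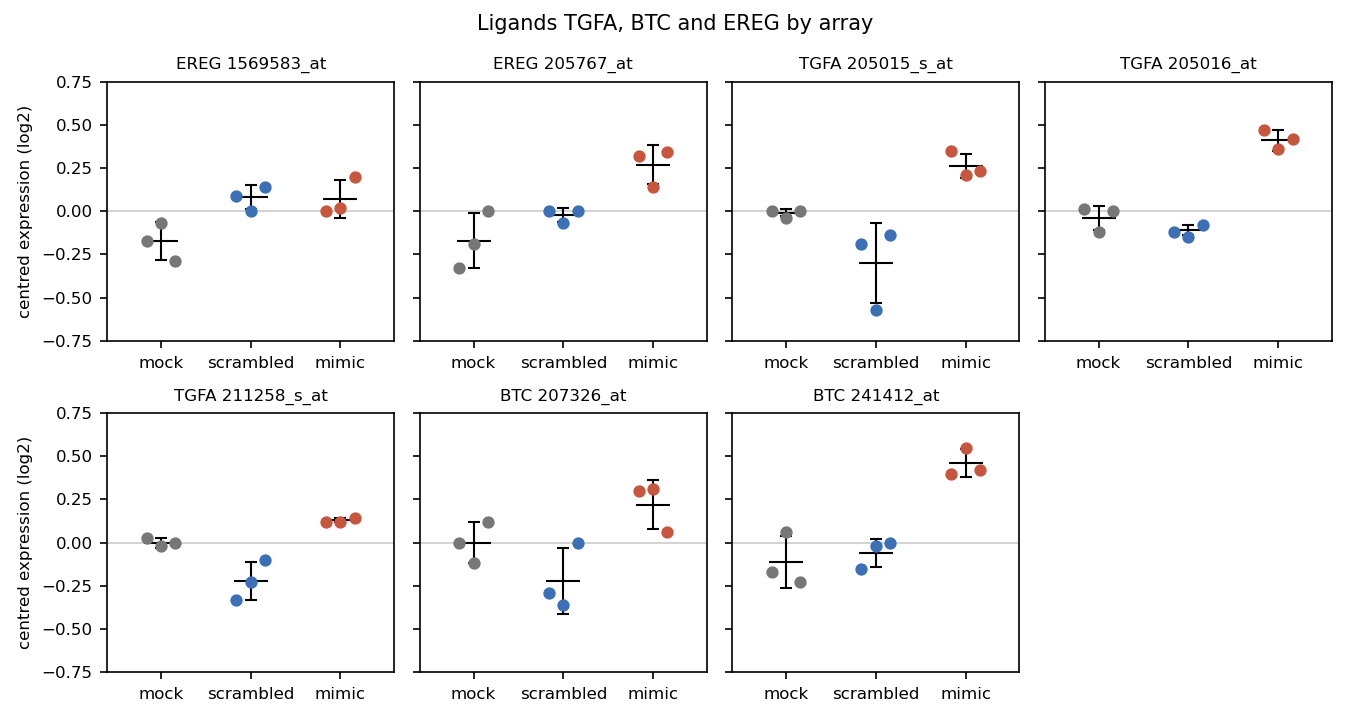
Centred log2 expression (y axis) of the TGFA, BTC and EREG probe sets on each array, by group (x axis). Points are arrays, and the bar and whiskers are the group mean and SD (n = 3). For TGFA 205016_at the mimic arrays lie between 0.36 and 0.47, above all control arrays.

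The other ligands did not pass against the scrambled control in the fit of all 9 arrays. EREG, which encodes epiregulin, had a change of 0.29 at 205767_at (SE 0.09, 95% interval 0.10 to 0.48, adjusted p = 0.0667), with mimic arrays at 0.32, 0.14 and 0.34 and scrambled arrays at 0.00, -0.07 and 0.00 that did not overlap them. It was called under 4 of 14 alternatives, which were the fit of the 2 groups alone and leaving out mock replicate 1, mock replicate 3 or mimic replicate 2. Its second probe set, 1569583_at, had a change of -0.01 (interval -0.17 to 0.16), so the EREG probe sets differed. Both were in the class from 4 to 8. The probe set of EGF read -0.06, -0.20 and -0.04 with the mimic and 0.07, 0.07 and 0.16 with the scrambled control, without overlap, for a change of -0.20 (interval -0.35 to -0.05, adjusted p = 0.1). HBEGF encodes heparin-binding EGF-like growth factor, and its 4 probe sets had changes between -0.03 and 0.04, with intervals that all lay between -0.24 and 0.23. The lowest adjusted p among the 4 was 0.836.

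Against mock cells, the mimic gave 3 higher, 2 lower and 28 uncalled member probe sets, beside 5.07% of all probe sets called higher and 6.98% lower. This comparison shares the mimic arrays with the previous one, so the values are given side by side and are not separate evidence. All 3 higher probe sets belonged to ligands and both lower ones to EGFR. TGFA 205016_at was higher by 0.45 (SE 0.06, adjusted p = 0.000619), and its other probe sets had changes of 0.28 and 0.12 that did not pass (adjusted p = 0.106 and 0.254). BTC 241412_at was higher by 0.57 (SE 0.08, adjusted p = 0.00128), and 207326_at had a change of 0.22 that did not pass (adjusted p = 0.225). For TGFA 205015_s_at and 211258_s_at and BTC 207326_at the change against mock was thus smaller than that against the scrambled control. The scrambled control itself differed from mock at these probe sets by -0.29, -0.23 and -0.22, none of which passed (adjusted p = 0.14, 0.0722 and 0.289). TGFA 205016_at also had a smaller change against mock than against the scrambled control (0.45 beside 0.53), and BTC 241412_at a larger one (0.57 beside 0.51). TGFA 205015_s_at was called against mock under 2 of 14 alternatives, the fit of the 2 groups alone and without scrambled replicate 2, and TGFA 211258_s_at between scrambled control and mock under 1, without scrambled replicate 3.

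EREG 205767_at read -0.33, -0.19 and 0.00 in mock cells, below all 3 mimic arrays. It was higher with the mimic than in mock cells by 0.44 (SE 0.09, adjusted p = 0.0072), called under 14 of 14 alternatives, and EREG 1569583_at had a change of 0.25 that did not pass (adjusted p = 0.0621). EREG 1569583_at differed between scrambled control and mock by the same 0.25 (adjusted p = 0.0981). Its scrambled and mimic arrays overlapped and all 6 lay above the mock arrays.

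**Figure D2:**
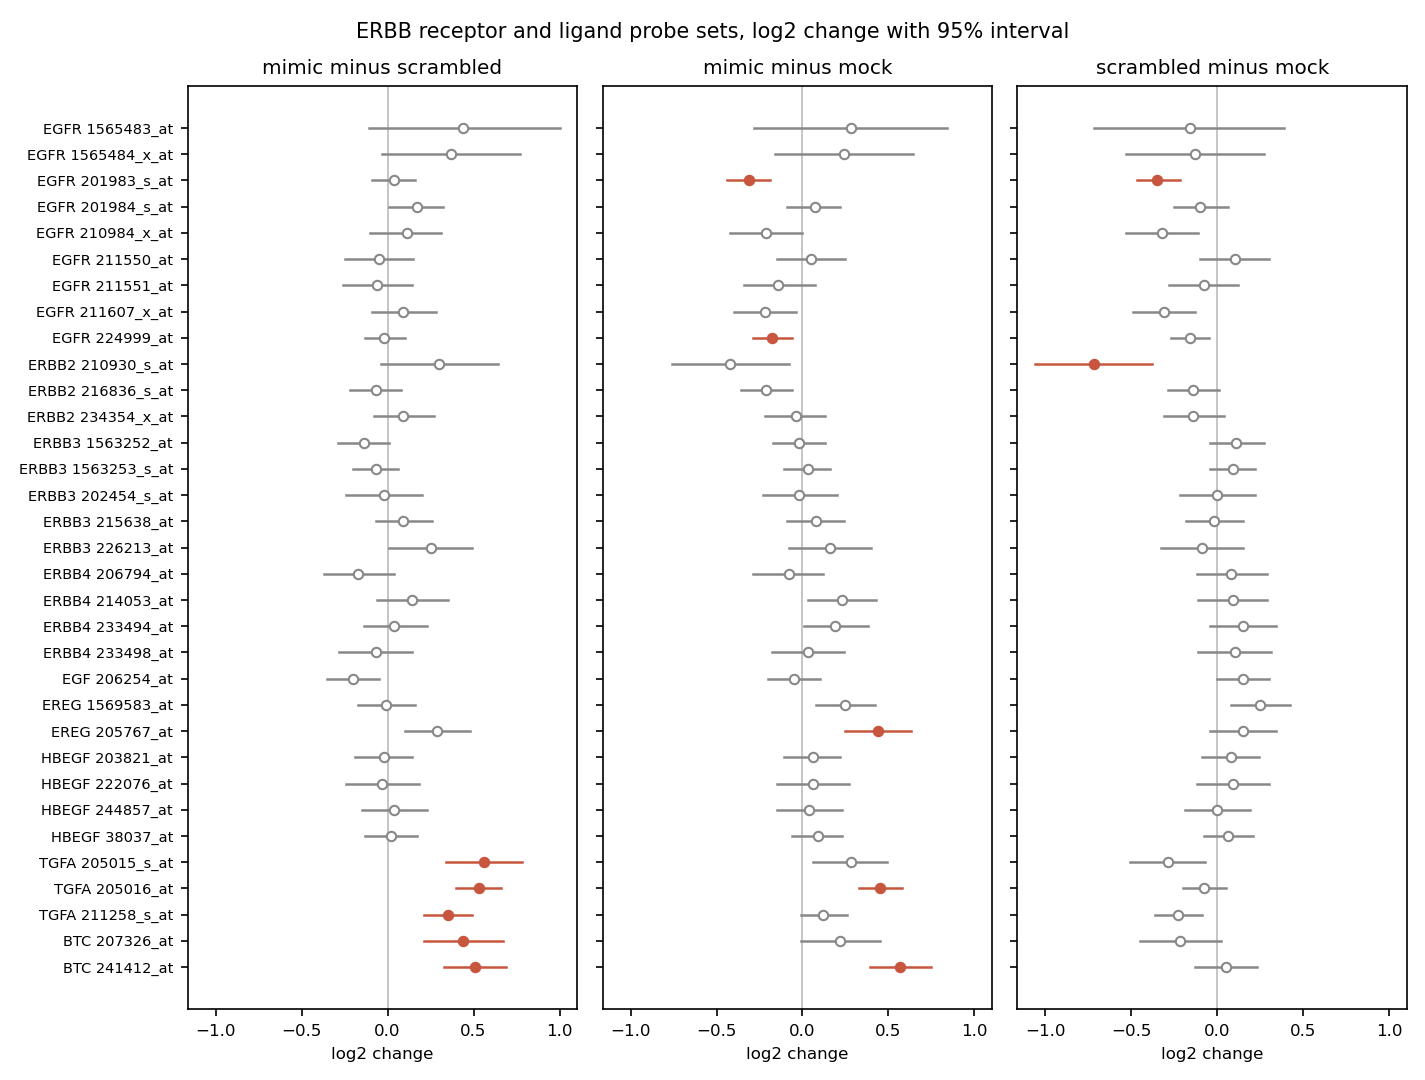
Log2 change (x axis) of each of the 33 probe sets (y axis) in the 3 comparisons, with 95% intervals from limma. Filled points passed at an adjusted p under 0.05: 5 ligand probe sets in mimic minus scrambled, 3 ligand and 2 EGFR probe sets in mimic minus mock, and 1 EGFR and 1 ERBB2 probe set in scrambled minus mock.

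The receptor calls were all differences from mock cells. Scrambled control against mock called 0 member probe sets higher and 2 lower, with 31 not called, beside 1.23% of all probe sets higher and 2.84% lower. The median log2 change of the 21 receptor probe sets was -0.09, and that over all probe sets was 0.01. Both calls were receptors, and 0 of the 12 ligand probe sets passed (limma), with 2 higher and 2 lower at an unadjusted p under 0.05.

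EGFR encodes the receptor for EGF and TGFA. Its probe set 201983_s_at read 0.26, 0.26 and 0.34 in mock cells, -0.11, -0.02 and -0.05 with the scrambled control and 0.03, -0.10 and 0.00 with the mimic. The mock arrays lay above the other 6, which overlapped each other. The probe set was lower with the scrambled control than in mock cells (log2 change -0.35, SE 0.06, adjusted p = 0.0102) and lower with the mimic (log2 change -0.31, SE 0.06, adjusted p = 0.005), both called under 14 of 14 alternatives. The mimic differed from the scrambled control by 0.04 (interval -0.09 to 0.16). EGFR 224999_at was lower with the mimic than in mock cells (log2 change -0.18, SE 0.05, adjusted p = 0.0495), but it was called under only 1 of 14 alternatives, and with the scrambled control it differed by -0.16 and did not pass (adjusted p = 0.119).

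Between scrambled control and mock, every EGFR probe set but 211550_at (0.10) had a change below 0, and the sizes differed. Between mimic and mock the EGFR probe sets differed in sign. 210984_x_at and 211607_x_at had changes of -0.32 and -0.31 between scrambled control and mock that did not pass (adjusted p = 0.0921 and 0.0637). 211607_x_at was called in that comparison under 2 of 14 alternatives, quantile normalization and without mock replicate 1, and the latter also called it for mimic against mock. 201984_s_at, also in the class of 8 or more, had changes of -0.10 for scrambled control against mock, 0.07 for mimic against mock and 0.17 for mimic against scrambled control, none of which passed. 211550_at and 211551_at had changes within 0.14 of 0 in every comparison. For 1565483_at and 1565484_x_at, which the annotation ties to the same transcript record, mimic replicate 2 read 1.13 and 0.81, while the other 8 arrays lay between -0.19 and 0.13. The mimic minus scrambled changes of 0.44 and 0.37, not called (adjusted p = 0.361 and 0.276), were 0.05 and 0.10 without that array, and those against mock went from 0.28 and 0.24 to -0.11 and -0.03.

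ERBB2 encodes the receptor that acts as the partner of the others. Probe set 210930_s_at read 0.34, 0.51 and 0.31 in mock cells, -0.24, -0.77 and 0.00 with the scrambled control and 0.04, -0.05 and -0.10 with the mimic. All mock arrays lay above the other 6, and scrambled replicate 2 was the lowest. It was lower with the scrambled control than in mock cells (log2 change -0.72, SE 0.15, adjusted p = 0.0304), a call kept under 8 of 14 alternatives and lost with the 2 groups alone, with the replicate block and without each of mock replicates 1, 2 and 3 or scrambled replicate 1. Without scrambled replicate 2 the change was -0.51, and the call was kept. Against mock the mimic differed by -0.42 and did not pass (adjusted p = 0.115), but was called with the 2 groups alone and without scrambled replicate 2. 216836_s_at and 234354_x_at did not pass in any comparison, although without mimic replicate 1 the former was called for mimic against mock. They had changes of -0.14 and -0.14 for scrambled control against mock. Of the ERBB2 probe sets only 216836_s_at was in the class of 8 or more, and the others, 210930_s_at among them, were from 4 to 8.

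**Figure D3:**
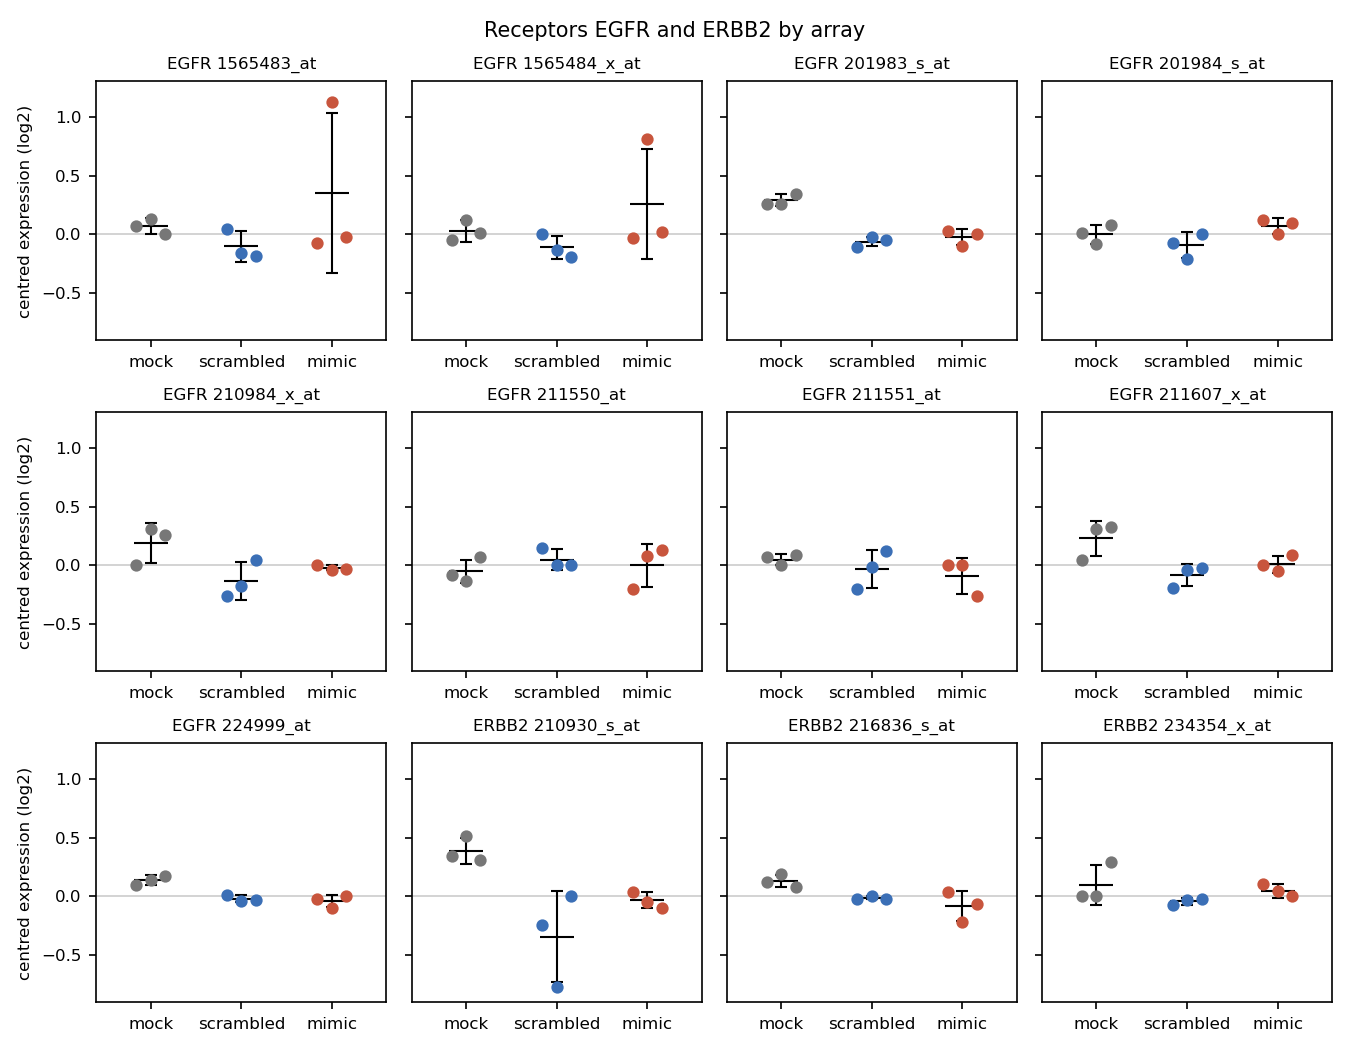
Centred log2 expression (y axis) of the 9 EGFR and 3 ERBB2 probe sets on each array, by group (x axis). Points are arrays, and the bar and whiskers are the group mean and SD (n = 3). The mock arrays of EGFR 201983_s_at lie between 0.26 and 0.34, above the other 6, and mimic replicate 2 stands alone at 1.13 in EGFR 1565483_at.

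Of the RNA quality controls of the array, that of ACTB differed between mock and the transfected groups, and that of GAPDH differed little. The difference between the 3' and 5' control probe sets of ACTB, a measure of RNA integrity and labelling, was -0.18 ± 0.03 in mock cells, 0.10 ± 0.04 with the scrambled control and 0.02 ± 0.08 with the mimic (mean ± SD of centred log2 values, n = 3). That of GAPDH was 0.03 ± 0.04, 0.01 ± 0.02 and -0.02 ± 0.03. Their part in the differences from mock was not tested.

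ERBB3, the receptor of neuregulins with weak kinase activity, and ERBB4, a neuregulin receptor that also binds betacellulin and epiregulin, had no called probe set in any comparison (limma). Over all probe sets the shares called higher and lower were 4.52% and 4.15% between mimic and scrambled control. They were 5.07% and 6.98% for mimic against mock, and 1.23% and 2.84% for scrambled control against mock. The absence of calls among 9 probe sets is thus not a result about these receptors. At an unadjusted p under 0.05, 1 of the 9 probe sets was higher between mimic and scrambled control, 2 were higher between mimic and mock and 0 passed between scrambled control and mock. The 5 ERBB3 changes between mimic and scrambled control ran from -0.14 to 0.25, and the highest, at 226213_at, had an interval of 0.01 to 0.49 (adjusted p = 0.222) with mimic replicate 1 at 0.42 and the other 8 arrays between -0.19 and 0.14. The 4 ERBB4 changes ran from -0.17 to 0.14. Without mock replicate 1, ERBB4 214053_at was called for mimic against mock. The widest of these intervals reach 0.49 for ERBB3 and -0.37 for ERBB4, so changes up to that size lie within them. At 4 of the 9 probe sets of these 2 receptors, 3 or more arrays held the same stored value, which can lower the estimated spread.

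In values of 1 per gene, averaged over the probe sets of the gene's highest level class, TGFA and BTC were the members called between mimic and scrambled control, with changes of 0.55 and 0.48 (adjusted p = 0.000259 and 0.000671). Against mock, TGFA, BTC and EREG were higher by 0.36, 0.39 and 0.34 (adjusted p = 0.00318, 0.00199 and 0.00236). ERBB2 was lower (log2 change -0.21, adjusted p = 0.0396), a call kept under 5 of 15 alternatives. This ERBB2 value is that of 216836_s_at alone, which did not pass against mock in the probe set fit (limma adjusted p = 0.0723). The call is thus not separate evidence. EGFR was lower with the scrambled control than in mock cells (log2 change -0.23, adjusted p = 0.0227), kept under 10 of 15 and with a change of -0.17 that did not pass averaged over all of its probe sets. Over all genes the shares called higher and lower were 7.57% and 6.95% between mimic and scrambled control. They were 8.29% and 10.3% for mimic against mock, and 2.7% and 5.19% for scrambled control against mock.

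The genes whose 9 array values were most like those of TGFA 205016_at were KRT18, a keratin of simple epithelia (Pearson r = 0.994), and ADORA2B, an adenosine receptor (r = 0.991). Those most like BTC 241412_at were SLC18B1 (r = 0.982) and LITATS1 (r = 0.981). These are the highest of 19775 genes over 9 arrays of 3 groups, so the shared group difference carries them, and they are descriptions without a test.

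Pathway genes around the receptors were grouped in 6 lists, of which 102 of 116 listed genes had a value. With the mimic against the scrambled control 15 were higher and 16 lower, with 71 not called, beside 7.57% of all genes called higher and 6.95% lower. Against mock 9 were higher and 26 lower, beside 8.29% and 10.3% of all genes. Between scrambled control and mock 1 was higher and 15 were lower, beside 2.7% and 5.19%. The shares over all genes were not matched for level class, and most listed genes lay in the class of 8 or more. An excess over these shares was not tested. The median log2 change over the lists was -0.02, -0.04 and -0.03 in these comparisons, and over all genes -0.01, 0.01 and 0.02.

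Among 4 other ERBB ligands measured, 1 was called between mimic and scrambled control, beside 7.57% of all genes called higher and 6.95% lower. This was NRG1, a neuregulin that binds ERBB3 and ERBB4. Its mimic arrays read 0.24, 0.22 and 0.23, its scrambled arrays -0.05, -0.10 and 0.05 and its mock arrays -0.15, -0.19 and 0.00. The mimic arrays did not overlap the rest, and NRG1 was higher by 0.26 than with the scrambled control (adjusted p = 0.0109) and by 0.35 than in mock cells (adjusted p = 0.00192). Averaged over all 6 probe sets the change was 0.03 in both comparisons and did not pass. NRG2, named after its values were seen, was lower than in mock cells (log2 change -0.32, adjusted p = 0.0475), a call kept under 5 of 15 alternatives, with a change of -0.56 averaged over all its probe sets.

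None of the 15 genes of ligand shedding and processing, which hold the proteases that release the ligands, was called between mimic and scrambled control or between scrambled control and mock (limma). Over all genes 7.57% were called higher and 6.95% lower in the first comparison, and 2.7% and 5.19% in the second. The absence of calls among 15 genes is thus not a result about this list. At an unadjusted p under 0.05, 0 listed genes passed in the first comparison, and 1 higher and 4 lower in the second. Against mock 1 was higher and 2 were lower, beside 8.29% and 10.3% of all genes, and these are named after their values were seen. They were TIMP3, an inhibitor of metalloproteases (0.16, adjusted p = 0.0193), and the metalloprotease genes ADAM12 (-0.40, adjusted p = 0.0098) and ADAM15 (-0.16). TIMP3 was not called averaged over all its probe sets, ADAM12 then had a change of -0.16, and ADAM15 was called under 3 of 15 alternatives, among them that average (-0.26).

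Of 20 adaptors and RAS-MAPK genes, 2 were higher and 4 lower under the mimic than under the scrambled control, and 1 was higher and 7 lower than in mock cells. Over all genes the shares called higher and lower were 7.57% and 6.95% in the former comparison and 8.29% and 10.3% in the latter. PTPN11, which encodes the phosphatase SHP2 that couples receptors to RAS, fell by 0.50 (SE 0.04, adjusted p = 2.34e-05), with mimic arrays from -0.44 to -0.39 and the others from -0.03 to 0.09. PLCG1, a phospholipase that binds activated receptors, fell by 0.61 (SE 0.06, adjusted p = 5.91e-05), with mimic arrays at -0.48, -0.70 and -0.70 and the others from -0.05 to 0.03. Both were also lower than in mock cells (log2 change -0.43 and -0.64) and differed little between the controls (0.07 and -0.03, not called). With the mean of all probe sets, PTPN11 and PLCG1 had smaller changes against the scrambled control, -0.36 and -0.42, and were still called. SHC1, an adaptor, was lower than with the scrambled control (log2 change -0.22) and than in mock cells (-0.44), and its scrambled arrays were lower than mock (log2 change -0.22, adjusted p = 0.0222, kept under 10 of 15 alternatives). PLCG2, a relative of PLCG1, was higher by 0.28 (adjusted p = 0.00901), or 0.17 with the mean of its probe sets. CRKL, an adaptor named after its values were seen, was lower (log2 change -0.25, adjusted p = 0.0376), kept under 7 of 15 alternatives.

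MAP2K1, the kinase MEK1, showed another pattern. It read 0.08, 0.00 and 0.00 with the mimic, 0.11 on each mock array, and -0.32, -0.38 and -0.33 with the scrambled control, which therefore stood apart from both. It was higher under the mimic than under the scrambled control by 0.37 (adjusted p = 0.000206) and lower with the scrambled control than in mock cells (log2 change -0.45, adjusted p = 0.000478), while mimic and mock differed by -0.08 and did not pass. HRAS, a RAS protein, was lower than mock with the mimic (log2 change -0.40, adjusted p = 0.000764) and with the scrambled control (log2 change -0.23, adjusted p = 0.0383, kept under 8 of 15 alternatives).

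In the PI3K-AKT branch 2 of 15 genes were higher and 3 lower under the mimic than under the scrambled control, and 1 was higher and 4 were lower with the scrambled control than in mock cells. Over all genes the shares called higher and lower were 7.57% and 6.95% in the former comparison and 2.7% and 5.19% in the latter. PDPK1, the kinase that activates AKT, and FOXO3, a transcription factor that AKT inhibits, were higher by 0.45 and 0.23 (adjusted p = 0.00021 and 0.0029). Both were lower with the scrambled control than in mock cells (log2 change -0.35 and -0.20, adjusted p = 0.00417 and 0.0149), and differed between mimic and mock by 0.10 and 0.03, not called. Averaged over all probe sets PDPK1 changed by 0.24 against the scrambled control, and neither gene then passed between scrambled control and mock.

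AKT1 was lower with the mimic than in mock cells (log2 change -0.48, adjusted p = 0.000329) and lower with the scrambled control (log2 change -0.28, adjusted p = 0.0216, kept under 11 of 15 alternatives). Its difference of -0.21 between mimic and scrambled control (adjusted p = 0.0447) was called under 6 of 15 alternatives. TSC1, which with TSC2 restrains growth signalling to mTOR, was lower than with the scrambled control (log2 change -0.27, adjusted p = 0.0129), a call lost without scrambled replicate 1 or 2. TSC2 was lower than mock in both transfected groups (log2 change -0.40 in each), and PIK3CB, a catalytic subunit of PI3K, was higher by 0.27 with the mimic and 0.29 with the scrambled control. Averaged over all probe sets TSC2 had changes of -0.20 and -0.17, and neither gene then passed between scrambled control and mock. PIK3R1, a regulatory subunit of PI3K named after its values were seen, was lower than with the scrambled control (log2 change -0.20, adjusted p = 0.0468), kept under 4 of 15 alternatives.

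Of 29 genes of negative feedback and receptor turnover, 5 were higher and 5 lower under the mimic than under the scrambled control, 3 were higher and 6 lower than in mock cells, and 3 were lower with the scrambled control than in mock cells. Over all genes the shares called higher and lower were, in that order, 7.57% and 6.95%, 8.29% and 10.3%, and 2.7% and 5.19%. ERRFI1, an inhibitor that binds the EGFR kinase, read -0.24, -0.24 and -0.25 with the mimic, 0.12, 0.14 and 0.24 with the scrambled control and -0.02, 0.00 and 0.03 in mock cells. It fell by 0.41 against the scrambled control (SE 0.05, adjusted p = 0.000143) and by 0.24 against mock (adjusted p = 0.00359). PTPN12, a tyrosine phosphatase, fell by 0.37 and 0.35 (adjusted p = 0.000325 and 0.0005), or by 0.28 and 0.23 with the mean of its probe sets. Among genes named after their values were seen, the ubiquitin ligases CBL and NEDD4 were lower than with the scrambled control (log2 change -0.28 and -0.33, adjusted p = 0.00372 and 0.002), and the change of CBL was -0.15 with the mean of its probe sets. STAM and LRIG3 were higher by 0.25 and 0.31 (adjusted p = 0.0177 and 0.0357), called under 11 and 7 of 15 alternatives. LRIG2 was lower (log2 change -0.26, adjusted p = 0.0161), and the change was -0.04, not called, with the mean of its probe sets.

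The dual-specificity phosphatase genes DUSP4, DUSP5 and DUSP6, which encode phosphatases of MAP kinases, were higher under the mimic than under the scrambled control. DUSP4 read 0.41, 0.34 and 0.21 with the mimic, between -0.23 and -0.18 with the scrambled control and between -0.04 and 0.13 in mock cells, and was higher by 0.52 than with the scrambled control (adjusted p = 0.000274) and by 0.30 than in mock cells (adjusted p = 0.00769). DUSP5 read 0.14, 0.00 and 0.00 with the mimic, -0.47, -0.41 and -0.44 with the scrambled control and 0.11, 0.01 and 0.12 in mock cells. It was higher by 0.48 against the scrambled control (adjusted p = 0.00014), lower with the scrambled control than in mock cells (log2 change -0.52, adjusted p = 0.000658), and differed between mimic and mock by -0.03. For DUSP5, as for MAP2K1, the scrambled arrays were those that stood apart. DUSP6 was higher by 0.17 (adjusted p = 0.0405), a call kept under 7 of 15 alternatives, and lower with the scrambled control than in mock cells (log2 change -0.32, adjusted p = 0.0048). Its mimic arrays lay between the scrambled and the mock arrays, and mimic and mock differed by -0.15, not called. HGS, an endosomal sorting protein, was lower than mock with the mimic (log2 change -0.41) and with the scrambled control (-0.35), and with the mean of its probe sets these were -0.27 and -0.19, the latter not called.

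**Figure D4:**
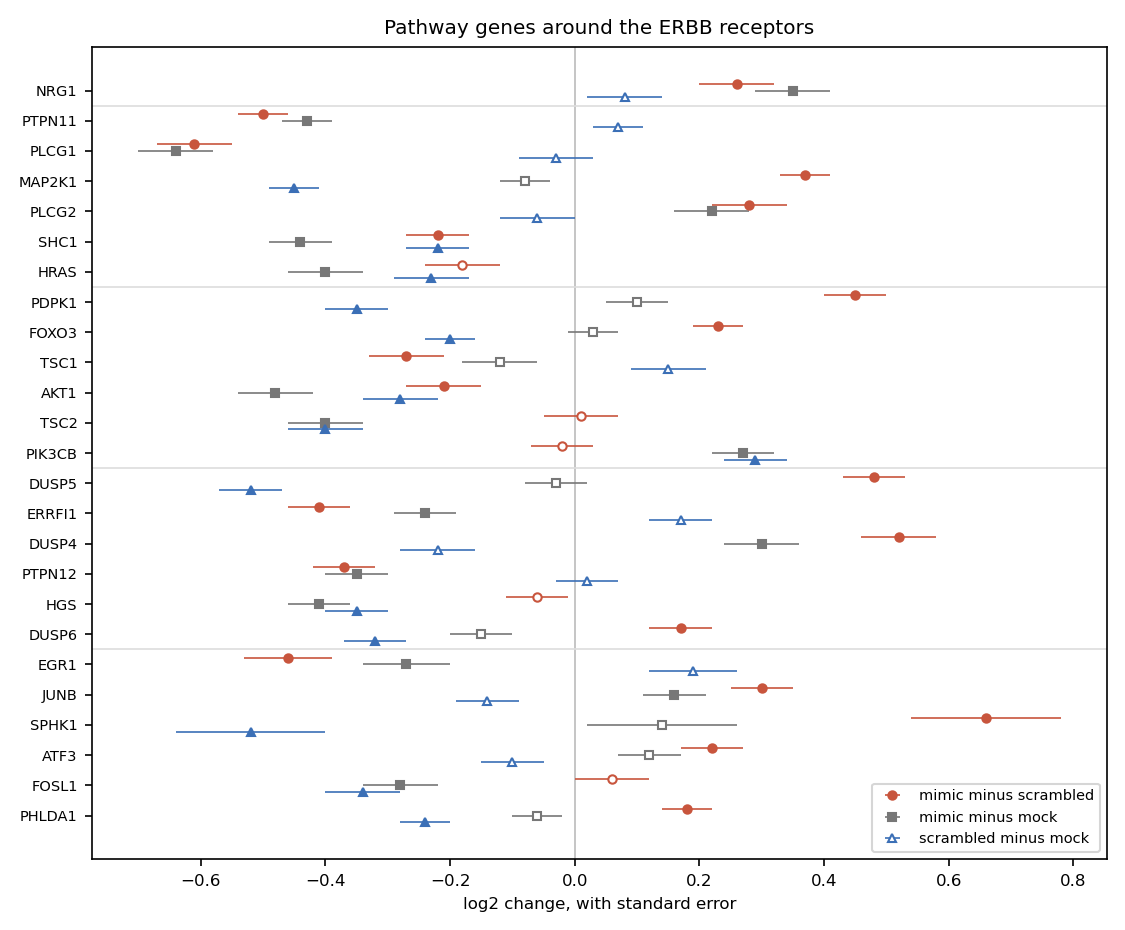
Log2 change with its standard error (x axis) of the 25 pathway genes named by rule (y axis), in the 3 comparisons. Filled symbols passed at an adjusted p under 0.05, and lines separate the lists. DUSP5 and MAP2K1 lie near 0 for mimic minus mock, at -0.03 and -0.08.

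Of 19 ERK-responsive genes, which ERK signalling is known to induce, 5 were higher and 4 lower under the mimic than under the scrambled control. Against mock 1 was higher and 7 were lower, and with the scrambled control 0 were higher and 5 lower than in mock cells. Over all genes the shares called higher and lower were, in that order, 7.57% and 6.95%, 8.29% and 10.3%, and 2.7% and 5.19%. EGR1, an early response transcription factor, fell by 0.46 against the scrambled control (SE 0.07, adjusted p = 0.00175) and by 0.27 against mock (adjusted p = 0.0268, kept under 10 of 15 alternatives). JUNB, a subunit of the AP-1 transcription factor, was higher by 0.30 than with the scrambled control (adjusted p = 0.00202) and by 0.16 than in mock cells (adjusted p = 0.0494, kept under 4 of 15). The members of the list thus moved in both directions.

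SPHK1, a sphingosine kinase, read 0.21, 0.00 and 0.18 with the mimic, -0.24, -0.79 and -0.55 with the scrambled control and -0.09, 0.03 and 0.03 in mock cells. It was higher by 0.66 against the scrambled control (SE 0.12, adjusted p = 0.00283) and lower with the scrambled control than in mock cells (log2 change -0.52, adjusted p = 0.0222, kept under 11 of 15), and mimic and mock overlapped. ATF3 and PHLDA1 were higher than with the scrambled control by 0.22 and 0.18 (adjusted p = 0.0159 and 0.0165), each kept under 13 of 15 alternatives. Between mimic and mock they differed by 0.12 and -0.06, not called. PHLDA1 and FOSL1, an AP-1 subunit, were lower with the scrambled control than in mock cells (log2 change -0.24 and -0.34, adjusted p = 0.00904 and 0.00825). The remaining calls against the scrambled control, named after their values were seen, were MCL1 (0.26), MYC (-0.22), IER2 (-0.15) and ETV5 (-0.20), with adjusted p between 0.0209 and 0.0487. MYC was called under 11 of 15 alternatives, IER2 under 6, MCL1 under 4 and ETV5 under 3.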

How the data were processed

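Per the labels' protocols, Trizol was used to extract total RNA of the 9 samples, which was biotin-labelled for Affymetrix arrays. The authors deposited a table of log values for 54675 probe sets. Probe summarisation and normalisation are not given in the sources used here. The values show that the deposited log2 table is centred on each probe set's median, and the log base, not stated, was taken as 2. The number of arrays limits the precision.

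After 62 control probe sets were left out, 41091 of 54613 probe sets had 1 gene symbol in the platform annotation of 2016, 1801 had several and 11721 none. A model of 3 group means was fitted over the 9 arrays (limma 3.58.1, R 4.3.3, lmFit then eBayes, two-sided tests), with Benjamini-Hochberg adjustment over all 54613 probe sets for members, or over 19775 genes for pathway lists. On simulated data the probe set fit missed the share of moderate changes first required, and that requirement was then replaced by ones on bias, large changes and false calls, which it met. Moderate and small changes can therefore be missed. A gene's value was the mean of its probe sets in its highest level class (below 4, 4 to 8, 8 or more). How that class is read from the stored rounding was revised several times after gene-level results had been seen, among them that of CDH1, and this moved gene calls. It does not enter the probe set fit, and the mean of all probe sets, which does not use it, was an alternative.

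The members and lists were chosen with earlier results of these data known. Genes named were all members, from each list up to 4 with the smallest p among those called in mimic against scrambled control and up to 2 more from scrambled control against mock, ZEB1, ZEB2 and CDH1, and the 2 genes most correlated with each called ligand. Others are marked as named after their values were seen. Alternatives were quantile normalization, a level of 4 or more, the 2 groups compared alone, the replicate block, a robust prior and leaving out each array. A promoter of ERBB3 is not analysed here.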

Additional observations from a re-analysis of the deposited data

How the results depend on the processing

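Counts of called features kept within 1.5 times the reported count except for those that follow. Of the member probe sets called between scrambled control and mock (2), 1 was called with the fit of the 2 groups alone and 1 with the replicate block, and leaving out 1 array gave 1 to 3. Leaving out 1 array gave 20 to 28 pathway genes between mimic and scrambled control in place of 31, lowest without scrambled replicate 2, and 10 to 17 between scrambled control and mock in place of 16, lowest without mock replicate 1. The numbers of replicates showed no clear pairing of the arrays: 1 of 9 correlations between same-numbered arrays was over 0.1 (range -0.24 to 0.15). These correlate deviations from means of 3 arrays, which can miss a pairing. With the replicate block 5 member probe sets were called between mimic and scrambled control and 4 between mimic and mock. Over 273 single changes, 3993 values under alternatives gave 3706 on the same side of the threshold, 252 no longer called and 35 newly called. The 3706 include values called in neither fit. Only values called in the reported fit could be lost, so the 252 are not to be read as a share of all 3993. The 82 that differed in sign were called in neither fit and are counted among the 3706. Tied stored values, present in 58.1% of probe sets of the class from 4 to 8, can lower the spread.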
